A study of Mus musculus with 6 samples.

Results

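The pyruvate dehydrogenase complex, with the kinases and phosphatases that set its activity, was described in mouse gastrocnemius muscle under 3 diets and 2 fasting times. Its 10 genes were found by their symbol in the array's annotation: the kinases Pdk1, Pdk2, Pdk3 and Pdk4, the phosphatases Pdp1 and Pdp2, and the complex genes Pdha1, Pdhb, Dlat and Pdhx. They were read by 18 of the 34945 probe sets with a single gene symbol, and they are 10 of 18193 genes. Each gene was represented by its brightest probe set on average, and 9 of the 10 genes passed the filter on low signal. Pdk3 did not.

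The pyruvate dehydrogenase complex turns pyruvate from glycolysis into acetyl-CoA inside mitochondria, and so commits carbohydrate carbon to oxidation. Pyruvate dehydrogenase kinases phosphorylate the E1 alpha subunit and switch the complex off, and pyruvate dehydrogenase phosphatases remove the phosphate and switch it on again. In skeletal muscle the kinase gene Pdk4 is known as a target of PPAR, FoxO and ERR transcription factors that is induced by fasting and by fatty acids, which spares glucose.

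Gastrocnemius is a mixed, mostly fast-fibre muscle of the calf. Male C57BL/6J mice entered the study at 6 weeks of age and ate their diet for 15 weeks, whereas the labels give an age of 21 months, and no result here uses the age. The HF+SFC+ALA diet was a high-fat diet, with 60 kcal% fat, to which sodium ferrous citrate (SFC) at 0.023% of weight and the phosphate of 5-aminolevulinic acid (ALA), a haem precursor, at 0.2% had been added. The HF diet had 60 kcal% fat with neither addition, and the Control diet had 10 kcal% fat. Mice of each diet were sampled after 24 h or after 4 h without food. RNA was pooled within each of these 6 groups and run on 1 array, the sources used here do not say how many animals a pool held, and no group has a replicate array. The 2 additions were given together, so their effects cannot be told apart.

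The values are array signals on a linear scale, made with MAS5, and signals of different probe sets cannot be set against each other. Differences are on the log2 scale, and each comparison came from 1 additive limma model of diet and fasting time over the 6 pools. Fasting was therefore compared within diet over 3 pairs of pools, and each diet contrast within fasting time over 2 pairs. A gene was called at an adjusted p (Benjamini-Hochberg over 11526 genes) under 0.05. These p-values rest on the spread left between pools once diet and time are removed, which is not the spread between animals. For each gene that spread has 2 degrees of freedom and is drawn toward that of genes of like signal (7.27 prior degrees of freedom). It also holds any difference between diets in the response to fasting. Errors are standard errors (SE), and intervals are 95% intervals of the same fit, not adjusted for the number of genes.

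Scaling was alike on all arrays, with a trimmed mean of 500.004 on each and medians of 63.0 to 69.5. The summed signal of 9 skeletal muscle fibre genes was 383870 to 445863 over the 6 pools, and 5 of 6 liver and heart markers were below the filter. The actin control's ratio of 3' to 5' signal, which grows as RNA is degraded, was 1.52 in the HF pool at 4 h and 1.08 to 1.22 in the other 5 pools. That of GAPDH was 0.814 to 0.863.

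No member was called in any of the 3 comparisons. Between 24 h and 4 h of fasting, limma called 0 of 9 members, against a background of 2.41% of all genes, and 2 members (Pdk4 and Pdp2) had an unadjusted p under 0.05, against 17.7%. For HF against Control it called 0 of 9, against 0.885%, and 2 members (Pdk2 and Pdp1) had an unadjusted p under 0.05, against 14.7%. For HF+SFC+ALA against HF it called 0 of 9, against 0% of all genes, with 0 members at an unadjusted p under 0.05, against 5.08%. The median difference of the 9 members was -0.01 for fasting, -0.09 between HF and Control, and 0.10 between HF+SFC+ALA and HF, where all genes had medians of 0.01, -0.00 and -0.00. No member differed 1.5-fold in 1 direction in all pairs of a comparison, against 0.555% of all genes for fasting, 2.22% for HF and Control, and 0.989% for HF+SFC+ALA and HF. Without overlap between groups, 2 members were higher and 0 lower at 24 h, against 10.6% and 8.36% of all genes. In HF, 1 was higher (19.7%) and 1 lower (18.9%) than in Control, and in HF+SFC+ALA 0 were higher (13.1%) and 0 lower (15.8%) than in HF.

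**Figure D1:**
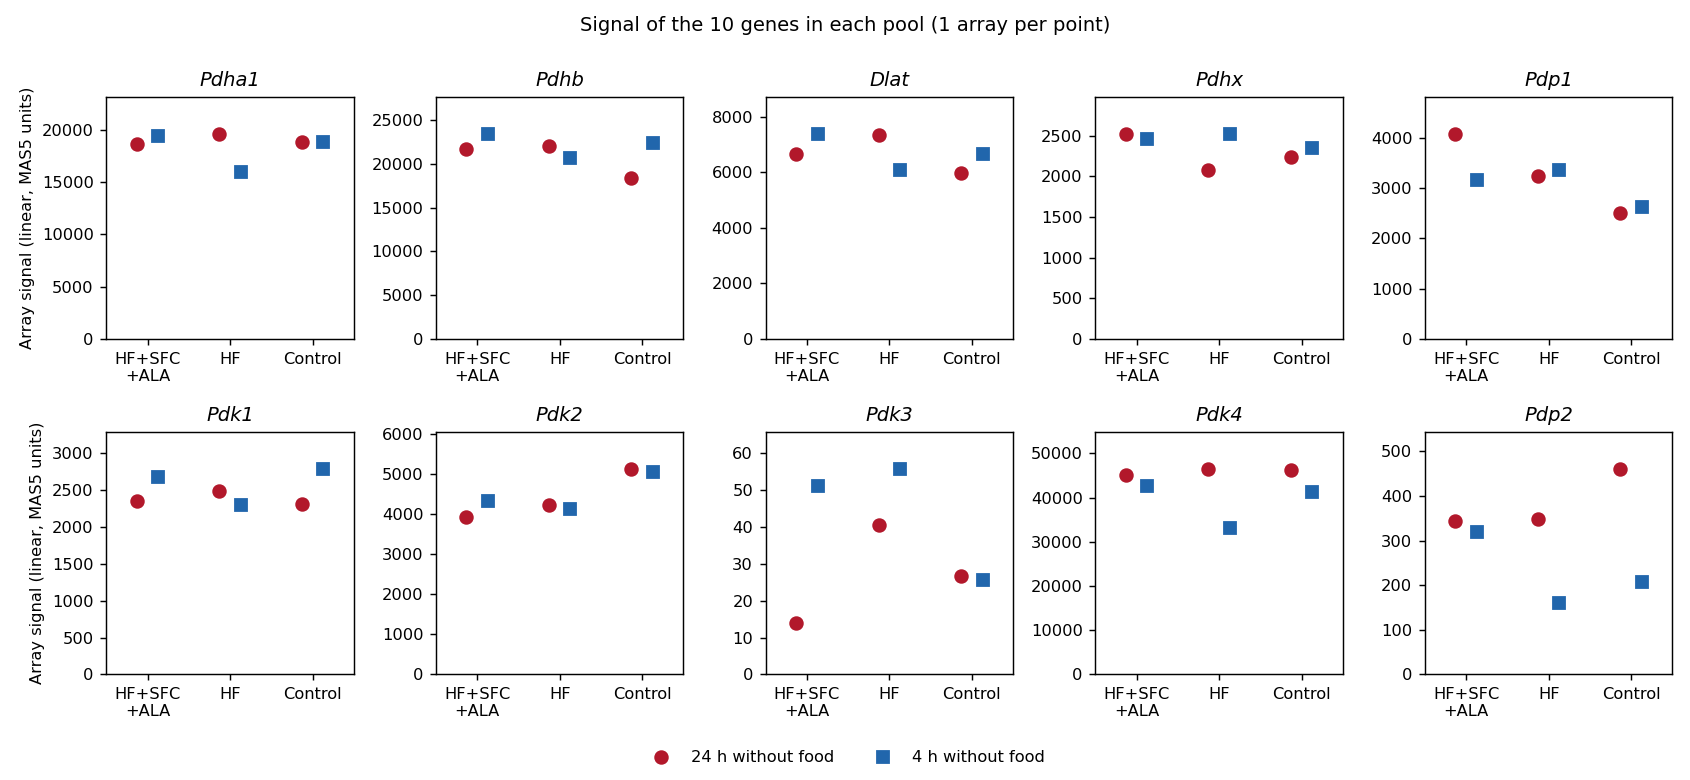
Array signal (linear, MAS5 units, from 0) of the 10 genes in each pool, with 1 panel per gene and its own axis. Circles are pools after 24 h without food and squares after 4 h, 1 array each, with no error bar because no group has a replicate. Pdk4 and Pdp2 have every 24 h point above every 4 h point, Pdk2 has its highest points and Pdp1 its lowest in the Control pools, and Pdk3 has no signal above 55.7.

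The plot of signals by diet and time shows narrow ranges for the complex genes and wider ones for Pdp2, Pdp1 and Pdk3.

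Pdk4, the kinase gene best known for its response to fasting, gave one of the brightest signals on the arrays in every pool, at the 99.8th percentile of probe sets or above. It had a signal of 45155 at 24 h and 42574 at 4 h in the HF+SFC+ALA pools. It had 46480 at 24 h and 33192 at 4 h in the HF pools. It had 46358 at 24 h and 41206 at 4 h in the Control pools. All 3 pools at 24 h lay above all 3 at 4 h, which 10.6% of all genes also did, and the HF pool at 4 h was the lowest of the 6.

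The fasting difference of Pdk4 was 0.25 ± 0.08 (SE, 3 pairs; limma adjusted p = 0.165), with an interval of 0.06 to 0.43. By diet it was 0.08 in HF+SFC+ALA, 0.49 in HF and 0.17 in Control, and whether the diets differ in it could not be tested with 1 pool each. HF minus Control was -0.15 ± 0.10 (2 pairs; adjusted p = 0.514), made of 0.00 at 24 h and -0.31 at 4 h. HF+SFC+ALA minus HF was 0.16 ± 0.10 (adjusted p = 0.970), made of -0.04 at 24 h and 0.36 at 4 h. The 24 h pools of the 3 diets thus had nearly equal signals, and the diet differences came mainly from 1 array, the HF pool at 4 h (33192). At 4 h the HF+SFC+ALA pool (42574) and the Control pool (41206) were close. The HF pool at 4 h is also the pool with the actin ratio of 1.52, whose part in this was not tested.

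Genes this bright had small fitted differences, but their single pairs of pools were shifted in common, with opposite signs that offset each other in the fit. The 84 other genes with a mean log2 signal within 0.5 of that of Pdk4 had a median absolute fasting difference of 0.04, against 0.14 over all genes tested, and 0 of them were called in any of the 3 comparisons. The median fasting difference of those 84 genes was -0.10 in HF+SFC+ALA, 0.16 in HF and 0.02 in Control. They therefore shared the sign of the Pdk4 fasting difference in HF but not its size. For HF minus Control their median was 0.06 at 24 h and -0.08 at 4 h. For HF+SFC+ALA minus HF it was -0.15 at 24 h and 0.10 at 4 h. The part of these common shifts in the Pdk4 differences was not tested. The highest signal of any probe set was 57775 to 64863 between arrays. How far a bright probe set understates a change of its transcript was not tested.

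Pdk2, a kinase gene expressed broadly and in muscle, had the lowest signals under the high-fat diets. Its signal was 3924 at 24 h and 4326 at 4 h in the HF+SFC+ALA pools. It was 4229 at 24 h and 4126 at 4 h in the HF pools, and 5125 at 24 h and 5056 at 4 h in the Control pools. Both HF pools were below both Control pools, as for 18.9% of all genes, and the HF+SFC+ALA pools were also below both. HF minus Control was -0.29 ± 0.08 (SE, 2 pairs; limma adjusted p = 0.173; interval -0.48 to -0.09), with -0.28 at 24 h and -0.29 at 4 h, a signal 1.22-fold lower. The fasting difference was -0.03 ± 0.07 (adjusted p = 0.882) and HF+SFC+ALA minus HF was -0.02 ± 0.08 (adjusted p = 0.995; interval -0.21 to 0.17).

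Pdk1, a kinase gene known as a target of hypoxia-inducible factor, had signals of 2350 to 2679 in the HF+SFC+ALA pools, 2292 to 2486 in the HF pools and 2313 to 2786 in the Control pools. The groups overlapped in each comparison. Its fasting difference was -0.11 ± 0.09 (limma adjusted p = 0.566), HF minus Control was -0.09 ± 0.11 (adjusted p = 0.738), and HF+SFC+ALA minus HF was 0.07 ± 0.11 (adjusted p = 0.977). Its other probe sets above the filter went the other way for HF minus Control, at 0.29 and 0.09, so the gene has no settled direction here.

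Pdk3, the kinase gene on the X chromosome, was near the limit of measurement. Its signal was 13.9 at 24 h and 51.1 at 4 h in the HF+SFC+ALA pools, 40.6 and 55.7 at the same times in the HF pools, and 26.6 and 25.7 in the Control pools. Values at or under 26.4, the 30th percentile of signals and the floor used here, have no order, which applied to 2 of the 6 pools. No difference is given for it.

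Upstream sequences are shown for Pdk4 and Pdp2, the genes whose 24 h pools all lay above the 4 h pools, and for Pdk2, the kinase gene with the clearest diet difference. Each is the 250 bases before the gene's start from RefSeq on GRCm38.p6, written 5′ to 3′ on the gene's strand, at chr6:5496279-5496528 (minus strand) for Pdk4, chr8:104591222-104591471 (plus) for Pdp2 and chr11:95041372-95041621 (minus) for Pdk2. Capitals mark every match to a searched motif on either strand, here CCAAT or its complement ATTGG, and CACGTG.
Pdk4: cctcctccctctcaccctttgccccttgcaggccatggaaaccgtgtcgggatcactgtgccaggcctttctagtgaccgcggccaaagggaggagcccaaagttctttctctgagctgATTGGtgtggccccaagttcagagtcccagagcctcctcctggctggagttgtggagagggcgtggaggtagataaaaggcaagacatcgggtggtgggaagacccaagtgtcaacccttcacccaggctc
Pdp2: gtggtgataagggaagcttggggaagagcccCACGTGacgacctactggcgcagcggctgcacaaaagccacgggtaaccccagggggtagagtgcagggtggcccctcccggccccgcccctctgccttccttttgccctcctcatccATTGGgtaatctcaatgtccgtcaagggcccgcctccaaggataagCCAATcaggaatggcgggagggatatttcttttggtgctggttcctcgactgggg
Pdk2: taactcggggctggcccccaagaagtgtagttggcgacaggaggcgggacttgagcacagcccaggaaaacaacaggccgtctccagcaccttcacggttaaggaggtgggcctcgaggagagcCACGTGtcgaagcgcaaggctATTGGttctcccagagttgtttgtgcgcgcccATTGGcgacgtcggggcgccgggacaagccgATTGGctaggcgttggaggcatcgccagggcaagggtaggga

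The motifs searched on both strands were GTAAACA (the FoxO core), AGGTCA repeated in 1 direction with 1 free base between (the DR1 repeat bound by PPAR with RXR), TCAAGGTCA (the ERR element), CACGTG (the E-box) and CCAAT. The ERR element ends in the letters of the DR1 unit, and the other motifs do not overlap in this way. Such a window was matched for 7 of the 10 genes: Pdk2, Pdk3, Pdk4, Pdp2, Pdha1, Dlat and Pdhx. The FoxO core was in 0 of these 7 windows, against 3.17% of all 32851 promoter windows of the same length. The PPAR repeat was in 0 of 7, against 0.0335%, and the ERR element in 0 of 7, against 0.387%. The E-box was in 2 of 7, in Pdk2 and Pdp2, against 6.02%. CCAAT was in 4 of 7, in Pdk2, Pdk3, Pdk4 and Pdp2, against 33.8%. A match describes letters in the window and no binding, and the absence of a match says only that these letters are not in these 250 bases.

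The phosphatases work against the kinases. Pdp2, the isoform known to respond to insulin and to fall with fasting in rat heart and kidney, had 344 at 24 h and 320 at 4 h in the HF+SFC+ALA pools. It had 348 at 24 h and 160 at 4 h in the HF pools. It had 460 at 24 h and 208 at 4 h in the Control pools. The 24 h pools all lay above the 4 h pools, by little in HF+SFC+ALA and by more than 1.5-fold in the other diets.

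The fasting difference of Pdp2 was 0.79 ± 0.21 (SE, 3 pairs; limma adjusted p = 0.0943), or 1.73-fold, with an interval of 0.31 to 1.27. It was the largest among the 9 members and missed the threshold. By diet it was 0.10 in HF+SFC+ALA, 1.12 in HF and 1.15 in Control. HF minus Control was -0.39 ± 0.26 (adjusted p = 0.514), with -0.40 at 24 h and -0.38 at 4 h. HF+SFC+ALA minus HF was 0.49 ± 0.26 (adjusted p = 0.970), with -0.02 at 24 h and 0.999 at 4 h. The HF+SFC+ALA pool at 4 h was thus close to the 24 h pools of the high-fat diets, where the other 4 h pools were not.

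Pdp1, the calcium-stimulated phosphatase isoform abundant in muscle, ran opposite to Pdk2. Its signal was 4077 at 24 h and 3153 at 4 h in the HF+SFC+ALA pools. It was 3235 at 24 h and 3347 at 4 h in the HF pools, and 2501 at 24 h and 2629 at 4 h in the Control pools. Both HF pools were above both Control pools, as for 19.7% of all genes. HF minus Control was 0.36 ± 0.12 (SE, 2 pairs; limma adjusted p = 0.206; interval 0.10 to 0.62), or 1.28-fold, with 0.37 at 24 h and 0.35 at 4 h. The difference depended on single pools. It was 0.24 without the Control pool of 24 h (adjusted p = 0.554), 0.26 without the HF pool of 4 h (adjusted p = 0.388) and 0.46 without the HF pool of 24 h (adjusted p = 0.284). With the 4 h pool of Control left out it was 0.48 and passed the threshold (adjusted p = 0.0136), in a fit that rests on 1 Control pool and called 5.14% of all genes. The second probe set gave 0.45 (adjusted p over probe sets = 0.0986). The fasting difference was 0.08 ± 0.09 (adjusted p = 0.714), and HF+SFC+ALA minus HF was 0.12 ± 0.12 (adjusted p = 0.973). For these the second probe set gave 0.15 and -0.04.

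With both high-fat diets averaged against Control, a comparison chosen after the data had been seen, Pdk2 had a difference of -0.30 ± 0.07 (limma adjusted p = 0.110; interval -0.46 to -0.13). Pdp1 had 0.42 ± 0.10 (adjusted p = 0.102; interval 0.20 to 0.65), or 1.34-fold. All 4 high-fat pools were below both Control pools for Pdk2, as for 10.7% of all genes, and above both for Pdp1, as for 10.4%. This comparison called 0.668% of all genes. Across the 6 pools, which share the same arrays, the log2 signals of Pdk2 and Pdp1 had a Pearson r of -0.964. Both genes were picked for their opposite diet differences in these pools, so this r largely restates the choice and adds no support.

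Markers of cell types other than muscle fibres also differed by diet. The summed signal of 4 adipocyte markers was 1107 at 24 h and 2582 at 4 h in the HF+SFC+ALA pools, 5250 and 6303 in the HF pools, and 727 and 1312 in the Control pools. In HF against Control all 4 had higher values in the fit, and 3 were called, where 0.885% of all genes were called. The adipokine gene Adipoq rose by 2.63 ± 0.21 (limma adjusted p = 0.00275) and the leptin gene Lep by 3.74 ± 0.30 on the floored scale (adjusted p = 0.00275). The lipid droplet gene Cidec rose by 1.91 ± 0.22 (adjusted p = 0.00741), and Retn had 2.17 ± 0.49 on the floored scale (adjusted p = 0.0896). All 4 had lower values at 24 h than at 4 h in the fit, by -0.68 for Adipoq to -1.52 for Retn, and 0 of 4 were called for fasting. The summed signal of 6 macrophage markers was 2158 and 2782 in the HF+SFC+ALA pools, 2994 and 2549 in the HF pools, and 1770 and 1827 in the Control pools, with 0 of 6 called. All 5 fibroblast markers had positive differences for HF against Control, with Dcn (0.05 ± 0.09) under its SE, and 3 were called, against the same 0.885%. Shares of all genes with positive differences were not counted, so the signs on these marker lists have no background. The collagen genes Col1a1 and Col3a1 rose by 0.82 ± 0.11 (adjusted p = 0.0158) and 0.93 ± 0.14 (adjusted p = 0.0229). The matrix gene Dpt rose by 0.53 ± 0.10 (adjusted p = 0.0392). With fasting Col1a1 fell by 0.62 ± 0.09 (adjusted p = 0.0129), and Col3a1 had -0.54 ± 0.12 (adjusted p = 0.0506). Dpt missed the threshold without any 1 of the 4 high-fat pools (adjusted p up to 0.102), Col3a1 without the HF pool of 24 h (0.0510), and Col1a1 missed it for fasting without either HF+SFC+ALA pool (adjusted p up to 0.100). Of 4 endothelial markers 0 were called. In the Control pool at 24 h, Lep and Retn were at the floor, and no macrophage marker was. The part of these cells in the diet and fasting results was not tested, and in pooled tissue more cells of a type and more RNA per cell cannot be told apart.

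**Figure D2:**
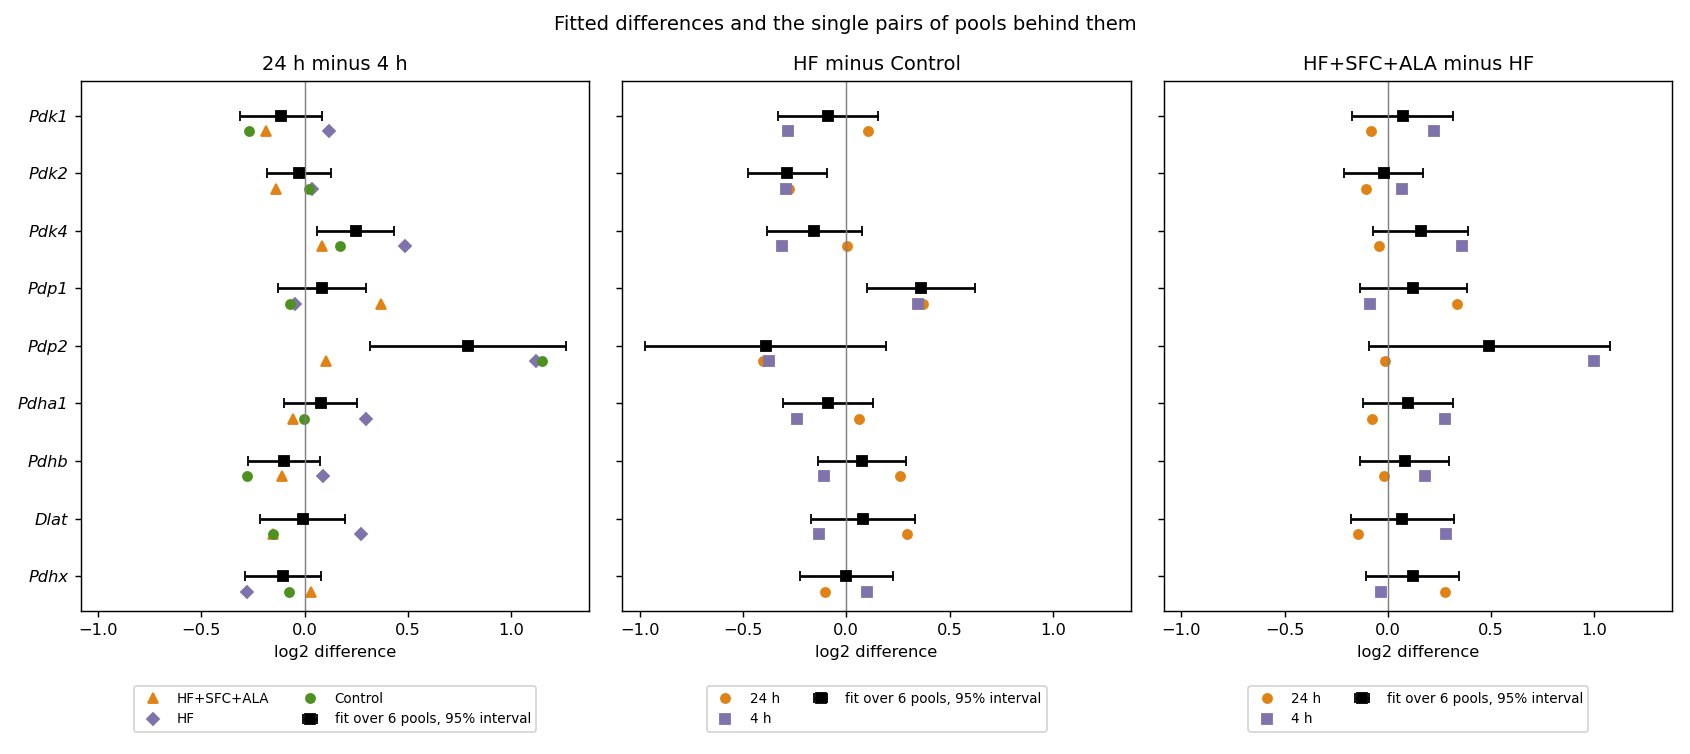
Fitted log2 differences of the 9 genes above the filter for 24 h against 4 h, HF against Control, and HF+SFC+ALA against HF, with black squares and bars for the fit and its 95% interval and coloured points for the single pairs of pools. The intervals of Pdk4 and Pdp2 lie above 0 for fasting, those of Pdk2 below and Pdp1 above 0 for HF against Control, and all 9 include 0 for HF+SFC+ALA against HF.

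In the plot of fitted differences, the fasting intervals of the 4 complex genes all include 0. Pdha1 encodes the E1 alpha subunit, which carries the sites the kinases phosphorylate. Its signal was 18602 at 24 h and 19376 at 4 h in the HF+SFC+ALA pools. It was 19634 at 24 h and 16002 at 4 h in the HF pools, and 18830 at 24 h and 18871 at 4 h in the Control pools. One pool, HF at 4 h, was low, and the other 5 lay between 18602 and 19634. The fasting difference was 0.08 ± 0.08 (limma adjusted p = 0.675; interval -0.10 to 0.26), with -0.06 in HF+SFC+ALA, 0.30 in HF and -0.00 in Control. HF minus Control was -0.09 ± 0.10 (adjusted p = 0.705) and HF+SFC+ALA minus HF was 0.10 ± 0.10 (adjusted p = 0.973).

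Pdhb encodes the E1 beta subunit. Its signal was 21761 and 23468 at 24 h and at 4 h in the HF+SFC+ALA pools, 22016 and 20722 in the HF pools, and 18380 and 22339 in the Control pools. The fasting difference was -0.10 ± 0.08 (limma adjusted p = 0.561; interval -0.28 to 0.07), HF minus Control was 0.08 ± 0.10 (adjusted p = 0.745), and HF+SFC+ALA minus HF was 0.08 ± 0.10 (adjusted p = 0.974). The groups overlapped in each.

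Dlat encodes the E2 acetyltransferase that forms the core of the complex and carries the lipoyl groups. Its signal was 6656 and 7397 at 24 h and at 4 h in the HF+SFC+ALA pools, 7348 and 6078 in the HF pools, and 5991 and 6662 in the Control pools. The fasting difference was -0.01 ± 0.09 (limma adjusted p = 0.969; interval -0.21 to 0.19). HF minus Control was 0.08 ± 0.11 (adjusted p = 0.768), with opposite signs at the 2 times, 0.29 at 24 h and -0.13 at 4 h. HF+SFC+ALA minus HF was 0.07 ± 0.11 (adjusted p = 0.980).

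Pdhx encodes the component that holds the E3 dehydrogenase to the core. Its signal was 2519 and 2464 at 24 h and at 4 h in the HF+SFC+ALA pools, 2082 and 2525 in the HF pools, and 2234 and 2352 in the Control pools. The fasting difference was -0.11 ± 0.08 (limma adjusted p = 0.557), HF minus Control was 0.00 ± 0.10 (adjusted p = 0.999), and HF+SFC+ALA minus HF was 0.12 ± 0.10 (adjusted p = 0.973). For the brightest probe sets of these 4 genes the fasting intervals stayed within -0.29 and 0.26, which does not show that the genes are unchanged. The bound does not cover their other probe sets. The dimmer probe set of Pdha1 had a fasting difference of 0.23 (limma adjusted p over probe sets = 0.382). By diet it was 0.22 in HF+SFC+ALA, 0.60 in HF and -0.14 in Control.

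**Figure D3:**
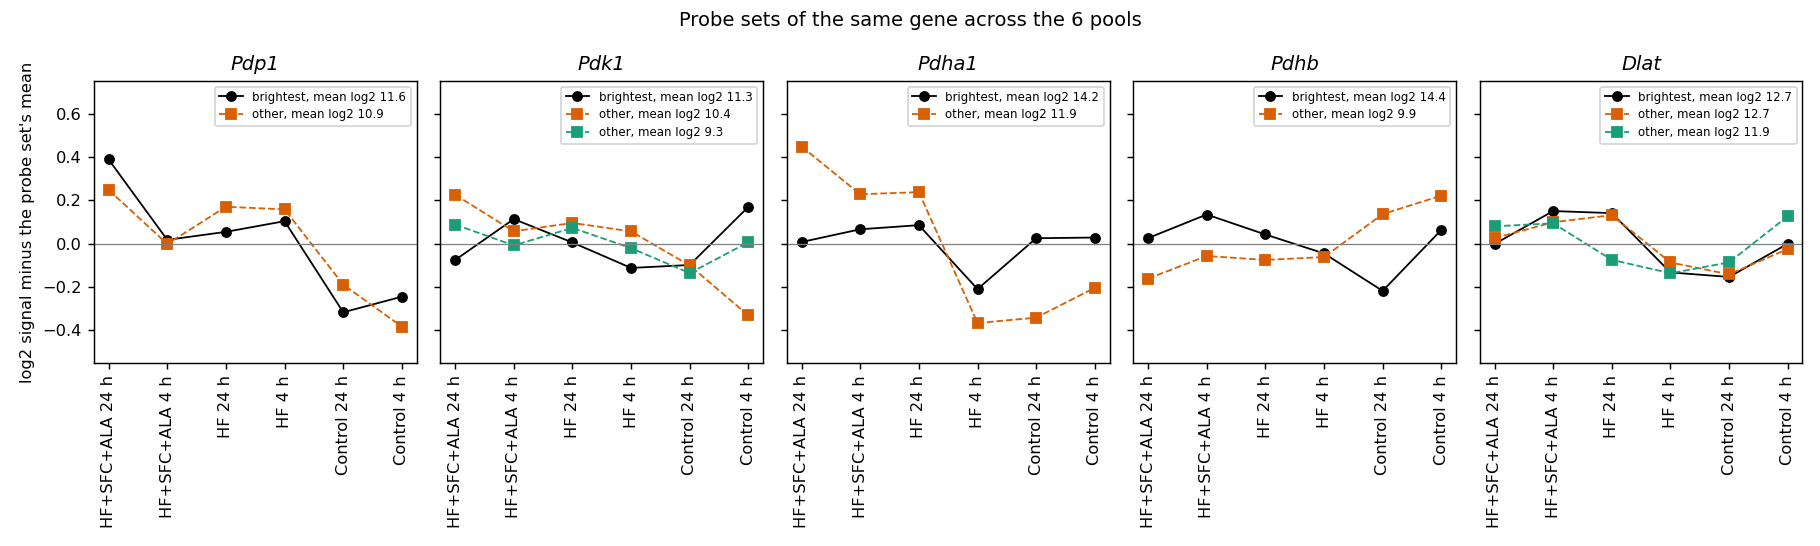
Log2 signal minus the probe set's own mean over the 6 pools, for the 5 genes with more than 1 probe set above the filter. Black circles are the brightest probe set and coloured squares the others. The probe sets of Pdp1 run together, those of Dlat partly, and those of Pdk1, Pdha1 and Pdhb part from each other, the Control pools included.

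Several genes were read by more than 1 probe set, and the plot of probe sets of the same gene shows where they part. For Pdha1, the dimmer probe set had 5341 and 4585 at 24 h and at 4 h in the HF+SFC+ALA pools, 4616 and 3037 in the HF pools, and 3090 and 3400 in the Control pools. It gave 0.21 for HF minus Control and 0.40 for HF+SFC+ALA minus HF, where the brightest gave -0.09 and 0.10. For Pdhb the dimmer probe set gave -0.25 for HF minus Control, where the brightest gave 0.08. For Dlat, 1 of the other probe sets gave 0.11 and 1 gave -0.13, where the brightest gave 0.08. No probe set of a member passed the threshold when every probe set was tested on its own.

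The HF pool at 4 h held the lowest signal of the 6 pools for Pdk4, Pdp2 and Pdha1, genes chosen here after their values were seen. By a small margin it was also lowest for Pdk1 (2292, with 2313 the next lowest). It held the highest signal for Pdhx (2525, with 2519 the next highest) and for Pdk3 (55.7, near the floor). The share of all genes with their lowest signal in this pool was not counted. Across the 6 pools Pdk4 had a Pearson r of 0.909 with Pdp2 and of 0.902 with Pdha1, as a description of pools measured on the same arrays. The same pool had the highest actin 3' to 5' ratio, 1.52. It also had the lowest summed signal of 7 slow fibre genes, 62397, where the other pools had 67338 (HF+SFC+ALA, 24 h), 92963 (HF+SFC+ALA, 4 h), 93438 (HF, 24 h), 70972 (Control, 24 h) and 83641 (Control, 4 h). The part of RNA quality or fibre type in these results was not tested.

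**Figure D4:**
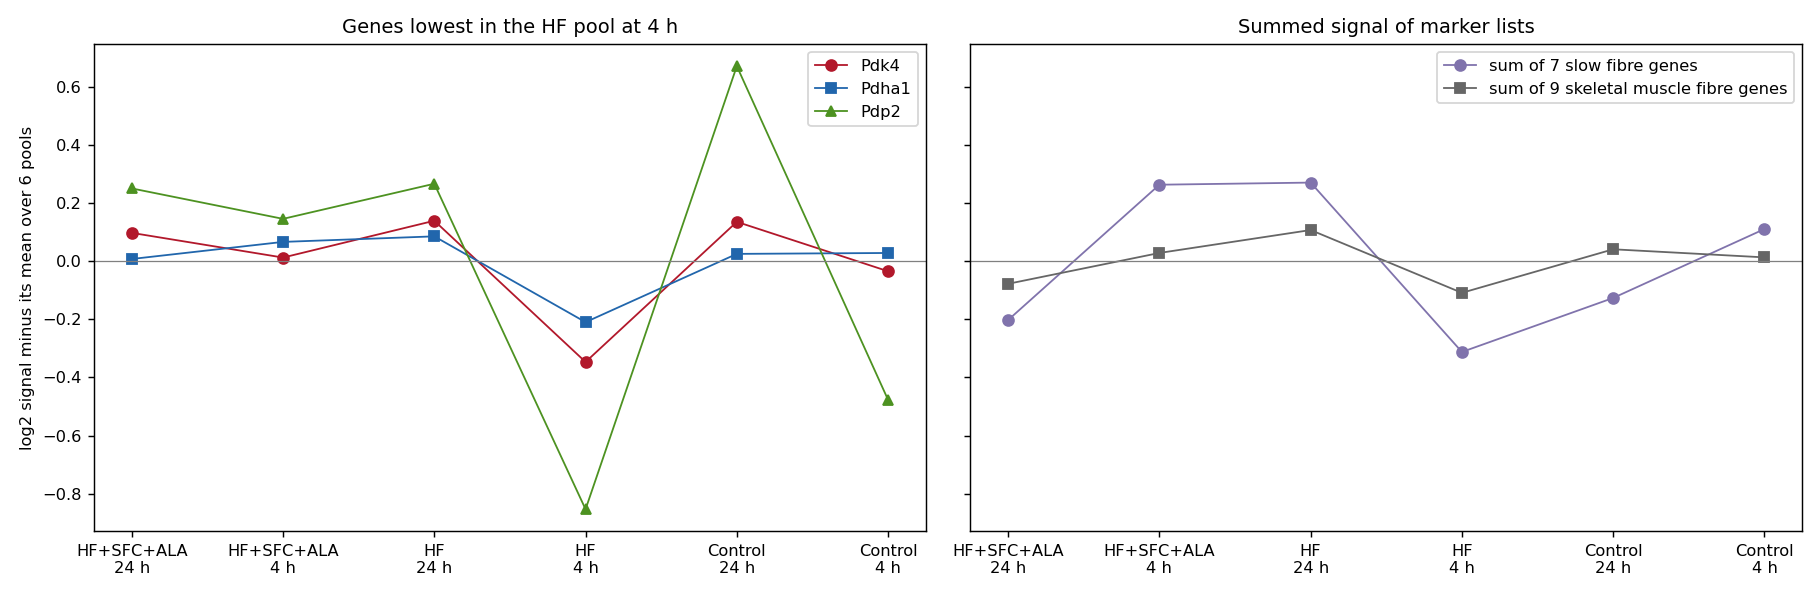
Log2 signal minus its mean over the 6 pools, for Pdk4, Pdha1 and Pdp2 (left) and for the summed signal of 7 slow fibre genes and 9 skeletal muscle fibre genes (right), with pools along the axis and 1 array per point. Every line has its lowest point in the HF pool at 4 h, and the genes on the left were chosen after their values were seen.

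The plot of pools sets these sums beside the signals of Pdk4, Pdha1 and Pdp2. The genes most like Pdk4 over the 6 pools, of 11525 compared, were Epb41l5 (r = 0.997), Mtmr1 (0.994), Rhou (0.993), Huwe1 (0.989) and Fars2 (0.986). With 6 pools, 163 genes had an r above 0.9.

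The other genes that supply, use or modify pyruvate dehydrogenase were followed on lists, which were chosen with earlier results of these data known. Of 17 measured genes for pyruvate supply and fates, limma called 0 in each comparison, with medians of 0.00 for fasting, -0.05 between HF and Control, and -0.01 between HF+SFC+ALA and HF. The largest fasting differences were 0.31 for the malic enzyme gene Me2 (adjusted p = 0.576) and -0.25 for Gpt2, a mitochondrial alanine transaminase (adjusted p = 0.309). For HF against Control they were -0.35 for Pcx, pyruvate carboxylase (adjusted p = 0.193), -0.29 for Pfkm, muscle phosphofructokinase (adjusted p = 0.143), and -0.23 for Slc16a3, a lactate exporter (adjusted p = 0.361).

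Dld encodes the E3 dehydrogenase that the complex shares with related complexes. It had 7099 and 7046 at 24 h and at 4 h in the HF+SFC+ALA pools, 6344 and 5479 in the HF pools, and 4887 and 5417 in the Control pools. The pools of the 3 diets did not overlap, and HF+SFC+ALA minus HF was 0.26 ± 0.10 (limma adjusted p = 0.875) and HF minus Control 0.20 ± 0.10 (adjusted p = 0.380). Pools of HF+SFC+ALA lay above those of HF without overlap for 13.1% of all genes, and pools of HF above those of Control for 19.7%. The share of all genes with the 3 diets apart was not counted, so this order of Dld has no background. Of the 9 measured genes of E3, lipoylation and phosphatase regulation, 0 were called in each comparison. Lias, which makes lipoyl groups, had -0.28 for HF against Control (adjusted p = 0.196), and Mcat, of mitochondrial fatty acid synthesis, had -0.29 (adjusted p = 0.360).

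The sister complexes for branched-chain ketoacids and 2-oxoglutarate were followed on 8 genes, of which 0 were called in any comparison. All 8 had positive fasting differences, some smaller than their SE, as for Dlst (0.03 ± 0.07). The median was 0.10, against 0.01 over all genes. Shares of all genes with positive differences were not counted, so the signs on this list have no background. Ppm1k, the phosphatase that activates the branched-chain complex, had 0.55 ± 0.15 (limma adjusted p = 0.100), and Bckdha, its E1 alpha subunit, had 0.32 ± 0.08 (adjusted p = 0.0874). In HF against Control 2 of 8 were positive, with 0.38 for Dhtkd1, a 2-oxoadipate dehydrogenase gene (adjusted p = 0.627), -0.32 for Bckdhb (adjusted p = 0.182) and -0.25 for the kinase gene Bckdk (adjusted p = 0.227).

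Of 15 genes for regulators of the kinases, limma called 1 higher and 2 lower with fasting, where 2.41% of all genes were called. As this list was chosen with earlier results of these data known, the count is no test of it. Foxo3, a FoxO factor held back by insulin, had 1174 and 925 at 24 h and at 4 h in the HF+SFC+ALA pools, 1185 and 875 in the HF pools, and 1608 and 1219 in the Control pools. It rose by 0.39 ± 0.08 (limma adjusted p = 0.0485). Ppargc1a, a coactivator of mitochondrial genes, had 1239 and 2314 at 24 h and at 4 h in the HF+SFC+ALA pools, 1798 and 2515 in the HF pools, and 978 and 2991 in the Control pools. It fell by 1.0 ± 0.17 (adjusted p = 0.0212), and Irs1, which relays the insulin signal, fell by 0.40 ± 0.06 (adjusted p = 0.0167). Among those not called, Myc had 0.52 (adjusted p = 0.153) and the PPAR genes Ppard and Ppara had -0.44 (0.131) and -0.37 (0.307). The ERR gene Esrra had -0.32 (adjusted p = 0.0696), and Foxo1, also a FoxO gene, had -0.23 (0.375). In all, 6 of the 15 genes had positive fasting differences. Foxo3 missed the threshold without any 1 of the 4 high-fat pools, with adjusted p up to 0.204, and Ppargc1a and Irs1 missed it without either HF+SFC+ALA pool, with adjusted p up to 0.101 and 0.129. None (0 of 15) was called in HF against Control, with -0.74 for Myc (adjusted p = 0.154) and 0.53 for Ppargc1b (adjusted p = 0.223). For HF+SFC+ALA against HF 0 of 15 were called.

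Of 11 measured fuel-switch genes that share regulators with Pdk4, 3 were called higher with fasting, where 2.41% of all genes were called. The list's median was 0.21, against 0.01 over all genes. Because the list was chosen with earlier results of these data known, its count and median are a description and no test of the list. Angptl4, an inhibitor of lipoprotein lipase, had 1946 and 1639 at 24 h and at 4 h in the HF+SFC+ALA pools, 2181 and 1088 in the HF pools, and 2137 and 1300 in the Control pools. It rose by 0.66 ± 0.13 (limma adjusted p = 0.0351). Mlycd, which breaks down malonyl-CoA, rose by 0.49 ± 0.08 (adjusted p = 0.0166), and the fatty acid transporter Cd36 by 0.39 ± 0.08 (adjusted p = 0.0486). Angptl4 and Cd36 missed the threshold without either HF pool, with adjusted p up to 0.0748 and 0.0948, and Mlycd kept it with any 1 pool left out. All 6 genes called for fasting among the regulators and fuel-switch genes missed the threshold with no filter on signal, with the mean over probe sets and without the intensity trend of the fit. Angptl4 and Foxo3 also missed it after quantile normalization, and Cd36 and Foxo3 with no floor. Fitting fasting without diet in the model left only Irs1 of the 6 past the threshold. In HF against Control 0 of 11 were called. Ucp3, a mitochondrial carrier of muscle, had -0.48 ± 0.10 (adjusted p = 0.0695) in that comparison and 0.42 ± 0.10 in HF+SFC+ALA against HF (adjusted p = 0.449), where 0 of 11 were called.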

How the data were processed

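Gastrocnemius RNA of 6 pools was measured on 6 one-colour expression arrays. The authors' deposited values are linear intensity, with 1 value for each probe set on each array, and MAS5 made them, per the submitters' processing notes, with no version or settings given. The labels name no replicate arrays, and precision is limited by how few arrays there are.

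After leaving out 64 controls, 45037 of the 45101 probe sets remained, of which the platform annotation gave 34945 a single gene symbol, 932 more than 1 and 9160 none; for 34741 the symbol was updated by gene identifier. The brightest probe set represented each gene. The 30th percentile of signal (26.4) served as a floor before log2, and genes with a mean log2 signal over 5.88, the median, were kept (11526 genes). In R 4.3.3, limma 3.58.1 fitted diet plus fasting time (eBayes with an intensity trend; 2 residual and 7.27 prior degrees of freedom), with Benjamini-Hochberg adjustment over all genes kept, and was tested on simulated data. Python 3.11.15 with matplotlib 3.10.9, numpy 2.4.6 and pandas 2.3.3 made tables and figures.

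All 10 members are named; from each list, the genes past the threshold and up to 4 others with the largest difference in a comparison; and the 5 genes most like Pdk4. The members and lists were chosen with earlier results of these data known. Listed genes without a probe set of a single symbol in the annotation used were not analysed here. Alternatives were quantile normalization, other filters, no floor, a pseudocount, other probe set rules, no intensity trend, fasting without diet in the model, and leaving out each pool; both high-fat diets against Control was added after the data had been seen.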

Additional observations from a re-analysis of the deposited data

Results flagged for a closer look

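Single pairs of pools went opposite ways for members of each comparison. With 1 pool per diet and time these differences between pairs were not tested. In 0 of them did both opposite pairs exceed the fit's standard deviation of a single pair. That standard deviation rests in part on these same gaps, and a pair near 0 cannot exceed it whatever the gap. The count therefore does not show that the gaps are small. For fasting, 7 of 9 members had diets of opposite sign, and the highest diet minus the lowest was 0.39 for Pdk1, 0.18 for Pdk2, 0.44 for Pdp1, 0.35 for Pdha1, 0.37 for Pdhb, 0.43 for Dlat and 0.31 for Pdhx. For HF against Control, 6 of 9 had opposite signs at 24 h and 4 h, and the gap was 0.39 for Pdk1, 0.32 for Pdk4, 0.30 for Pdha1, 0.37 for Pdhb, 0.43 for Dlat and 0.20 for Pdhx. For HF+SFC+ALA against HF, all 9 had opposite signs at the 2 times, and the gap was 0.31 for Pdk1, 0.18 for Pdk2, 0.40 for Pdk4, 0.42 for Pdp1, 1.01 for Pdp2, 0.35 for Pdha1, 0.20 for Pdhb, 0.43 for Dlat and 0.31 for Pdhx.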

How the results depend on the processing

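With the settings of the report limma called 278 genes for fasting, 102 between HF and Control, and 0 between HF+SFC+ALA and HF. With no filter on signal it called 0, 0 and 0 (2026, 1993 and 1120 at an unadjusted p under 0.05). Leaving out the intensity trend gave 0, 0 and 0 (1639, 1348 and 635). With the mean over a gene's probe sets it called 18, 1 and 0 (550 unadjusted for the last), and fasting without diet in the model gave 60. A filter at the 65th percentile gave 6 for HF+SFC+ALA against HF. With 1 pool left out the counts were 59 to 455 for fasting, 47 to 592 between HF and Control, and 0 to 109 between HF+SFC+ALA and HF; 109 and 107 came without the Control pools at 24 h and 4 h, and 592 without the Control pool at 4 h. The 7 list genes called for fasting, Col1a1 included, were not called with no filter, the probe set mean or no trend. Of the 6 markers called in HF against Control, none was called with no filter or no trend, and 1 (Lep) with the probe set mean.

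Other filters, no floor, no trend and fasting without diet leave a member's difference as it is by construction. Of 78 differences of members that another setting or the added comparison altered, 73 kept their direction and side of the threshold and 5 turned. The 78 include those of the 9 members for both high-fat diets against Control, set against HF minus Control. That is another contrast, chosen after the data had been seen, and not the same difference under another setting. All 5 turned with the mean over probe sets: Pdk1 for fasting (0.12), HF against Control (0.23) and HF+SFC+ALA against HF (-0.12), and for HF against Control Pdha1 (0.060) and Pdhb (-0.086). Of 126 that leaving out 1 pool altered, 93 kept both, 32 turned and 1 passed the threshold. Members past the threshold were 0 to 1 for HF against Control (Pdp1, without the Control pool at 4 h). Members 1.5-fold apart in every pair were 0 to 1 for fasting with 1 pool left out (Pdp2, without either HF+SFC+ALA pool) and 1 for HF against Control with no filter (Pdk3, part of whose values are at the floor).

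With 1 pool left out, differences that turned ranged as follows. For fasting, Dlat had -0.15 to 0.061, Pdha1 -0.031 to 0.15, Pdk2 -0.061 to 0.028 and Pdp1 -0.061 to 0.16. For HF against Control, Pdk1 had -0.26 to 0.084, Pdk4 -0.33 to 0.025, Pdha1 -0.25 to 0.074, Pdhb -0.065 to 0.22, Dlat -0.13 to 0.29 and Pdhx -0.13 to 0.13. For HF+SFC+ALA against HF, Pdk1 had -0.10 to 0.25, Pdk2 -0.10 to 0.064, Pdk4 -0.020 to 0.34, Pdp1 -0.092 to 0.34, Pdp2 -0.023 to 1.01, Pdha1 -0.064 to 0.26, Pdhb -0.060 to 0.22, Dlat -0.14 to 0.28 and Pdhx -0.0089 to 0.25. The 8 that kept their direction were fasting for Pdk4 (0.13 to 0.33), Pdp2 (0.61 to 1.13), Pdk1 (-0.23 to -0.036), Pdhb (-0.20 to -0.011) and Pdhx (-0.18 to -0.021), and HF against Control for Pdk2 (-0.33 to -0.24), Pdp1 (0.24 to 0.48) and Pdp2 (-0.66 to -0.12). The causes were not tested. Pools were compared within diet or within fasting time in the fit itself, and no replicate number pairs them further.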
